A study of Arabidopsis thaliana with 12 samples.

Results

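The SAUR (SMALL AUXIN UP RNA) growth genes described here are 37 arabidopsis loci, given as a list of loci by family and position, out of 37336 gene rows measured and of 80 genes annotated as SAUR. They were 32 loci in 6 clusters of neighboring genes and 5 single loci, namely SAUR51, SAUR54, SAUR9, SAUR10 and SAUR36. Their transcripts were measured by RNA sequencing in whole seedlings of wild-type (WT) Col-0 and of transgenic Col-0 plants that express 35S:HA-CsPYL1-5m. CsPYL1-5m is a sweet orange abscisic acid (ABA) receptor whose binding pocket was changed by substitutions. The constitutive 35S promoter drives it as an HA-tagged protein in the whole plant, and the endogenous receptors remain. Homozygous T3 progeny was used, and the labels do not say which line or lines the samples came from. Seedlings, grown for 12 days in liquid media according to the labels (the study's methods give a younger age), received 5 μM iSB09, a synthetic ABA receptor agonist, or DMSO as mock treatment for 3 hours. Each of the 4 groups (mock-treated WT, iSB09-treated WT, mock-treated CsPYL1-5m plants and iSB09-treated CsPYL1-5m plants) had 3 samples, which the study describes as independent experiments.

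SAUR genes are mostly intronless and encode short proteins, and many of them are among the fastest transcripts to respond to auxin. Members of the SAUR19 group are known to bind and inhibit clade D PP2C phosphatases, which otherwise keep the plasma membrane proton pumps dephosphorylated and inactive, so that the cell wall is acidified and cells expand. ABA is known to act on the same pumps in the opposite direction and to slow the growth of seedlings. Some SAUR genes have other known associations: SAUR36 is induced in senescing leaves, the SAUR62 to SAUR68 group promotes elongation of hypocotyls and stamen filaments, and SAUR50 and SAUR16 are induced by light in opening cotyledons.

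The clusters are named here by one member. The SAUR1 cluster (7 loci, SAUR49, SAUR50 and SAUR1 to SAUR5) and the SAUR14 cluster (4 loci, SAUR13 to SAUR16) lie on chromosome 4, from AT4G34750 to AT4G34810 and from AT4G38825 to AT4G38860. The SAUR6 cluster (3 loci, SAUR7, SAUR6 and SAUR12) is on chromosome 2, and the SAUR26 cluster (4 loci, SAUR26 to SAUR29) on chromosome 3. The SAUR62 cluster on chromosome 1 has 8 loci, SAUR61 to SAUR66 with AT1G29490 and AT1G29510, and the SAUR19 cluster on chromosome 5 has 6 loci, SAUR19 to SAUR24. AT1G29490 and AT1G29510 are given by locus because both carry the symbol SAUR68. Of the 37 loci, 36 have a single exon in the TAIR10.1 annotation, and the coding length runs from 261 to 561 bases. The loci differed widely in how far they resemble each other. Coding sequences within the SAUR19 cluster were 87.7 to 95.2% identical, within the SAUR26 cluster 77.7 to 86.3%, and within the SAUR62 cluster 45.4 to 89.3%. In the SAUR1 cluster, by contrast, 5 of 21 pairs shared enough exact short stretches to be compared, with at most 62.4% identity. The other pairs were not aligned.

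Near-identical neighbors matter because nonuniquely mapped read pairs had been discarded. In all, 7 members had a coding identity of at least 90% with another gene. They were the 6 loci of the SAUR19 cluster and SAUR62, whose closest relative, SAUR75 (97.0% identity), is not in its cluster. SAUR19 (AT5G18010, chromosome 5, coding sequence from 5963033 to 5963305 on the minus strand) and SAUR24 (AT5G18080, coding sequence from 5983840 to 5984112 on the plus strand) were the closest pair of members. Their coding sequences of 273 bases (RefSeq, TAIR10.1) differ at 13 positions, which are in capitals and show how little sequence separates reads of one locus from those of the other:
SAUR19: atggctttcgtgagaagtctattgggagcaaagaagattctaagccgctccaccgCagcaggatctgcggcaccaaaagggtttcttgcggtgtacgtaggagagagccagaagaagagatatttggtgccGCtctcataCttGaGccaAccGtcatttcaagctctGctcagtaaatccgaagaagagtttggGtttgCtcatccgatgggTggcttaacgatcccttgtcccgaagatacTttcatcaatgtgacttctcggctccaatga
SAUR24: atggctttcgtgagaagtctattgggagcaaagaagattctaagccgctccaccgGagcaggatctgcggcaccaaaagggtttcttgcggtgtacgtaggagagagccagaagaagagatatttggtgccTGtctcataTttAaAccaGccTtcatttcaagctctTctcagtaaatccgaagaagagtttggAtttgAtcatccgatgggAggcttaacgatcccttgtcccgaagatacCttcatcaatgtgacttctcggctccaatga
No stretch of 100 bases in the exons of the SAUR19 cluster was repeated exactly elsewhere in the genome, whereas such stretches made up 8.57% of the windows of SAUR62, 18.9% of those of SAUR63 and 21.6% of those of AT1G29510. SAUR62, SAUR63 and AT1G29510 can therefore have lost reads. The 6 loci of the SAUR19 cluster, near-identical but without such a stretch, are read with caution as well. SAUR13, SAUR61, SAUR63, SAUR64, SAUR7 and SAUR6 overlap another gene, and reads were counted regardless of strand. Reads in a shared stretch can therefore be lost or counted for the wrong gene, which was not tested.

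The 300 bases upstream of each annotated start were searched on both strands for TGTCTC, the auxin response element, for ACGTG, the core of the ABA response element, for CACGTG, the G-box (which contains ACGTG), and for CACATG, another E-box. CACATG was present upstream of 25 of the 37 loci (67.6%), against 13.1% of 27443 genes. It was present upstream of all 8 loci of the SAUR62 cluster and all 4 of the SAUR26 cluster, of 4 of 7 in the SAUR1 cluster and of 3 of 4 in the SAUR14 cluster. The windows of SAUR27 and SAUR28, which point in opposite directions, overlap, as do those of SAUR14 and SAUR15. Each of these pairs shares a match that was counted for both loci, and for SAUR27 it is the only match. TGTCTC was present in 7 of 37 windows (18.9%, against 13.0% of all genes), ACGTG in 5 (13.5%, against 25.6%) and CACGTG in none (against 7.09%). Neighboring SAUR genes arose by duplication, so that their upstream sequences are related, and a match is a description of these letters only. The windows of SAUR3, SAUR5 and SAUR14, which were among the members with the largest changes, and of SAUR36, which moved the other way, are shown 5′ to 3′ toward the start (RefSeq, TAIR10.1), with CACATG or its complement CATGTG and ACGTG in capitals:
SAUR3: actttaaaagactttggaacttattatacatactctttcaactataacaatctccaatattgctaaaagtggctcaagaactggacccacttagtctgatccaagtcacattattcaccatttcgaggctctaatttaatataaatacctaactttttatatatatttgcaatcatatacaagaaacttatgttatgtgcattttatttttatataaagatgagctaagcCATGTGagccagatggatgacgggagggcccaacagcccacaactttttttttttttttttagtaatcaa
SAUR5: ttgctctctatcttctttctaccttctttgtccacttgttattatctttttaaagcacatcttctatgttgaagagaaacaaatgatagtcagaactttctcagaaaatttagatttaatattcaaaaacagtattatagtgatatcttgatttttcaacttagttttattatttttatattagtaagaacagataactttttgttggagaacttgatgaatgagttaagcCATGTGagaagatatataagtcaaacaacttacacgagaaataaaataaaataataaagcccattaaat
SAUR14: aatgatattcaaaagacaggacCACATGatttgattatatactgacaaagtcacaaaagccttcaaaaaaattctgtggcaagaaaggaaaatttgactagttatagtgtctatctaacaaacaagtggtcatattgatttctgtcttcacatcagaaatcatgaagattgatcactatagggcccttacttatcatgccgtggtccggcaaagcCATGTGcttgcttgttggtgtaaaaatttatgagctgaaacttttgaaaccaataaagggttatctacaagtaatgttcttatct
SAUR36: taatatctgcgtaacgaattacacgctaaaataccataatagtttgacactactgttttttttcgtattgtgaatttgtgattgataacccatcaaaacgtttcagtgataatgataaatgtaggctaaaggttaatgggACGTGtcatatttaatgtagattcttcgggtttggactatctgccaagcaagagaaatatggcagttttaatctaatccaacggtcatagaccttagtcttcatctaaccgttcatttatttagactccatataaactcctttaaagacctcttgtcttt
These windows are chr4:16594062-16594361 (plus strand) for SAUR3, chr4:16598658-16598957 (plus) for SAUR5, chr4:18125560-18125859 (minus) for SAUR14 and chr2:18641263-18641562 (plus) for SAUR36. In SAUR3 and SAUR5, which have SAUR4 between them, the CACATG match began at nearly the same place, 70 and 69 bases before the start. SAUR14 had a match 85 bases before its start and SAUR36 had none.

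Reads counted on genes, as rebuilt from the steps of the deposited values, were 21502003 to 21754261 in the 6 WT libraries and 25746051 to 30696832 in the 6 CsPYL1-5m libraries, so that the genotype cannot be told apart from depth or from a batch. For scale, 3 reads on a transcript of 1000 bases were worth 0.158 to 0.235 TPM (transcripts per length, scaled to the same sum in each sample), a floor that covers counting error only. Shoot markers (4 photosynthesis genes) and root markers (6 genes) were present in every library, as in whole seedlings. In CsPYL1-5m plants the shoot markers summed to 28324 to 30437 TPM in mock-treated and 22738 to 26050 TPM in iSB09-treated samples, and the root markers to 4122 to 4294 and 3357 to 3690 TPM, both without overlap. Nearly all of the root sum was PYK10, at 4020 to 4186 and 3268 to 3600 TPM in these groups. In WT the root markers summed to 3869 to 4030.5 TPM in mock-treated and 2986 to 3544 TPM in iSB09-treated samples, and the sums of the shoot markers overlapped. Of these genes in CsPYL1-5m plants, 1 of 4 shoot and 5 of 6 root markers had an unadjusted p below 0.05 by limma, where 13780 of 19862 genes tested had. None of these markers was called by limma or voom for iSB09 against mock in either genotype. Among iSB09-treated samples, both fits called 1 of the 6 root markers lower in CsPYL1-5m plants than in WT, where limma called 4.49% of all genes lower. The part of these markers in the SAUR results was not tested. The seed storage gene SESA3 was listed at 0 in all 6 WT libraries and at 2.67 to 6.03 TPM in the CsPYL1-5m libraries. The other listed seed storage genes did not separate the genotypes: CRA1, CRU3 and CRU2 reached at most 1.27, 0.647 and 0.048 TPM in any library. The origin of the SESA3 reads was not tested. Replicate 2 of iSB09-treated WT stood apart from replicates 1 and 3. The SD of the log2 difference across 19612 genes was 0.511 and 0.421 between it and these replicates, against 0.250 between replicates 1 and 3, and the results that rest on this library are given below with and without it.

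Loci of the SAUR14, SAUR1 and SAUR6 clusters held most of the transcripts of the 37 loci. In mock-treated WT, the 37 loci summed to 317 ± 41.5 TPM (SD, n = 3), of which the SAUR14 cluster made up 29.0%, the SAUR1 cluster 26.0% and the SAUR6 cluster 17.8%. The SAUR62, SAUR19 and SAUR26 clusters made up 9.23, 5.89 and 4.04%. TPM values are per transcript length and can be compared between loci. SAUR14 and SAUR6 had the highest mean levels over the 12 samples, 37.3 and 42.5 TPM, and were followed by SAUR36 (19.5 TPM), SAUR50 (17.0 TPM), SAUR16 (16.6 TPM), SAUR49 (14.3 TPM) and SAUR1 (14.2 TPM). SAUR13 and SAUR61 were listed at 0 in every sample, and SAUR2 and AT1G29490 never exceeded 0.371 and 0.478 TPM. In the SAUR19 cluster, SAUR20, SAUR24 and SAUR21 held 5.80, 4.26 and 3.35 TPM on average and SAUR22, SAUR19 and SAUR23 between 0.804 and 1.08 TPM.

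The comparison of iSB09 with mock treatment in CsPYL1-5m plants asks how the genes responded when the agonist met the engineered receptor. Many of the listed SAUR genes were down-regulated: 19 of 37 were called lower (limma on log2(TPM + 0.5), adjusted p below 0.05 and absolute log2 fold change above 1), where 8.35% of all genes tested were, and none was called higher, where 9.17% were. One member had an unadjusted p below 0.05 in the higher direction, SAUR36, and limma voom on rebuilt reads called 21 lower and none higher. To enter the test, a gene needed at least 1 TPM in all 3 samples of one group, which 25 of the 37 reached. Without this filter, 35 members were above 0 and 19 of them were called lower, against 6.45% of all genes. Their median log2 fold change was -1.18, against -0.09 for all 26819 genes. TPM values have a fixed sum, and the median of all filtered genes was -0.16 in this comparison. After median-ratio scaling of the samples, 18 members were called lower, against 6.08% of all genes, and none higher, against 10.8%. In RNA of whole seedlings, fewer cells of a type and less RNA per cell cannot be told apart.

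By summed TPM, the fall was steepest in both chromosome 4 clusters and on chromosome 2, where SAUR6 held nearly all of the sum. Summed over its 4 loci, the SAUR14 cluster was at 80.6 ± 3.90 TPM in mock-treated and 13.8 ± 3.92 TPM in iSB09-treated CsPYL1-5m plants (SD, n = 3 each), 17.1% of the mock level. The SAUR1 cluster was at 84.2 ± 9.73 and 19.9 ± 3.78 TPM (23.6%) and the SAUR6 cluster at 60.8 ± 0.378 and 15.5 ± 3.11 TPM (25.5%, SD, n = 3 each). Of the SAUR6 cluster, SAUR6 itself had means of 58.7 and 14.7 TPM, SAUR7 of 1.31 and 0.443 TPM and SAUR12 of 0.780 and 0.397 TPM. Next came the SAUR26 cluster at 32.7% and the SAUR62 cluster at 40.5% of the mock level, then the SAUR19 cluster at 56.5%. No test was made of these sums, since the loci were chosen together. Called lower were 6 of 7 loci of the SAUR1 cluster, 3 of 4 in the SAUR14 cluster, 1 of 3 in the SAUR6 cluster, 3 of 4 in the SAUR26 cluster, 4 of 8 in the SAUR62 cluster, 0 of 6 in the SAUR19 cluster and 2 of 5 single loci.

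**Figure D1:**
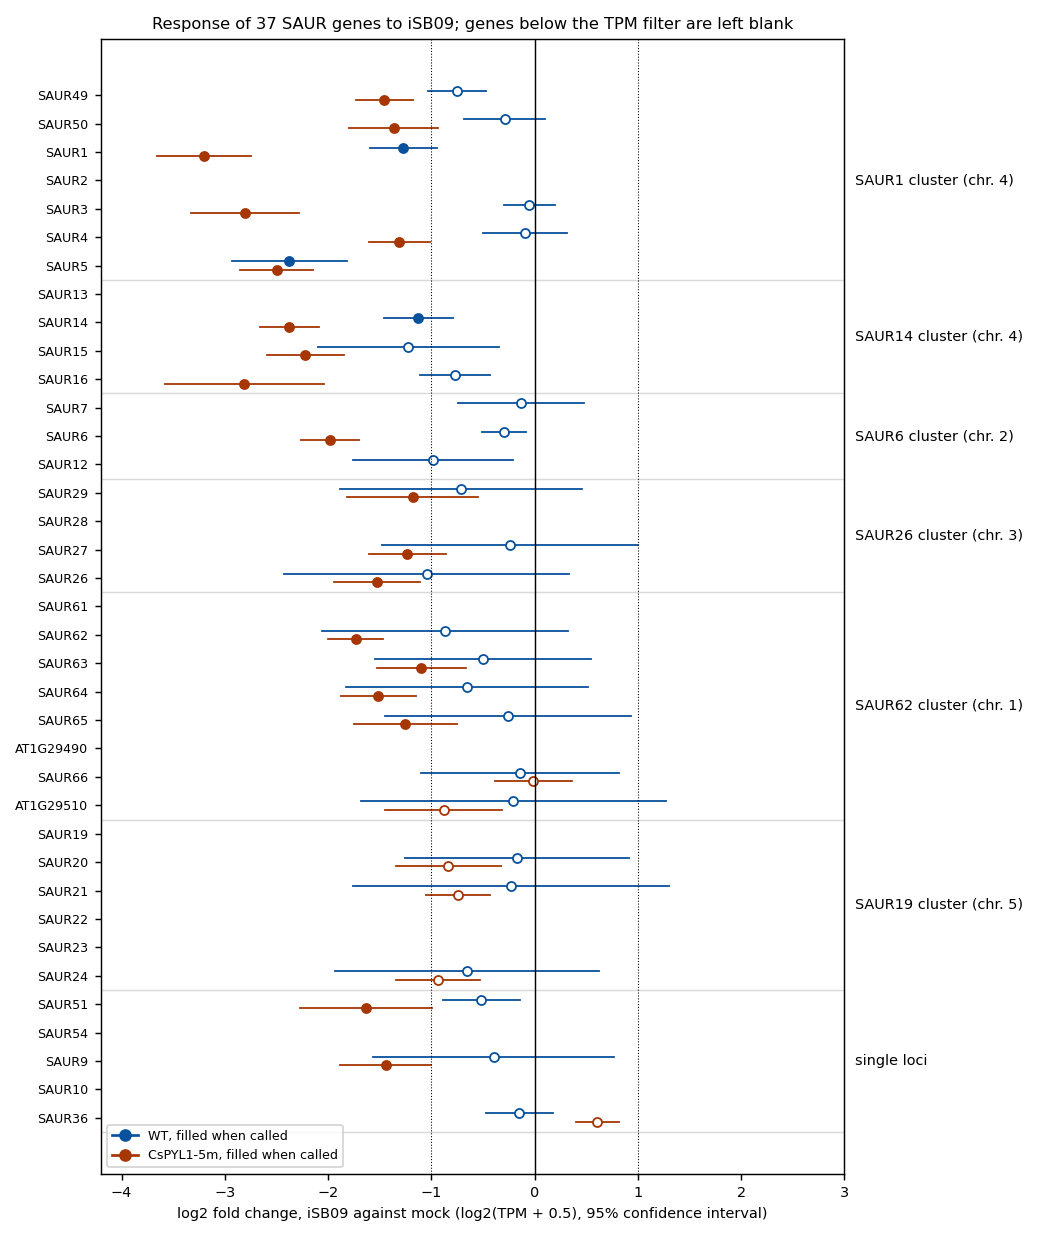
Log2 fold change of iSB09 against mock treatment (x axis, from log2(TPM + 0.5), with 95% confidence intervals) for each of the 37 SAUR loci (y axis, by cluster) in WT (blue) and CsPYL1-5m plants (brown). Filled points passed the thresholds, 3 in WT and 19 in CsPYL1-5m plants, and loci below the TPM filter of a comparison have no point.

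SAUR1 (AT4G34770, chromosome 4 from 16591179 to 16591910) had the largest log2 fold change of the listed genes in CsPYL1-5m plants. It was at 23.4, 21.4 and 22.8 TPM in the 3 mock-treated and at 3.09, 1.77 and 1.41 TPM in the 3 iSB09-treated samples. The groups were far apart, the iSB09 mean was 9.28% of the mock mean, and the log2 fold change was -3.20 (SE 0.201, adjusted p = 1.2e-06, limma). SAUR3 (AT4G34790, from 16594362 to 16595153), its neighbor but one, was at 9.93, 8.67 and 8.5 TPM in mock-treated and at 1.57, 0.641 and 0.570 TPM in iSB09-treated CsPYL1-5m plants. The lowest of these rest on 7 and 9 reads, and the log2 fold change of SAUR3 was -2.81 (SE 0.231, adjusted p = 7.1e-06, limma). SAUR5 (AT4G34810, from 16598958 to 16599568) fell from 8.90, 8.22 and 6.56 TPM to 1.06, 0.739 and 1.16 TPM, with no overlap and a log2 change of -2.5 (SE 0.157, adjusted p = 1.2e-06, limma). SAUR49, SAUR50 and SAUR4 fell by 1.45, 1.37 and 1.31 on the log2 scale. SAUR50 (AT4G34760, from 16582183 to 16583075), the locus of the cluster with the highest mean over the 12 samples though not in either mock-treated group, was at 26.7, 15.6 and 19.7 TPM without and at 9.3, 6.63 and 6.86 TPM with iSB09, so that its mock-treated samples spread more than those of SAUR1.

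SAUR14 (AT4G38840, chromosome 4 from 18124978 to 18125559) was the most abundant of the 37 loci in mock-treated WT. In CsPYL1-5m plants it was at 52.8, 58.4 and 51.8 TPM in mock-treated and at 12.2, 8.24 and 10.1 TPM in iSB09-treated samples. The groups did not overlap, and the log2 fold change was -2.37 (SE 0.127, adjusted p = 4.5e-07, limma), the lowest adjusted p of the 37. SAUR16 (AT4G38860, from 18130237 to 18131284) fell from 25.5, 16.7 and 19.98 TPM to 5.15, 1.67 and 1.66 TPM, with a log2 change of -2.81 (SE 0.340, adjusted p = 8.5e-05, limma). Replicate 1 of its iSB09-treated samples was well above the other 2 but below every mock-treated sample. SAUR15 (AT4G38850, from 18126057 to 18126829), long used as an auxin-responsive marker under the name SAUR-AC1, was at 6.28, 5.35 and 5.04 TPM without and at 0.767, 0.584 and 1.08 TPM with iSB09. Its log2 fold change was -2.22 (SE 0.163, adjusted p = 3.4e-06, limma). SAUR6 (AT2G21210, chromosome 2 from 9084628 to 9086029) was nearly the same in the 3 mock-treated samples of CsPYL1-5m plants, at 58.1, 58.9 and 58.9 TPM, and was at 18.2, 13.0 and 12.8 TPM with iSB09. It fell by 1.98 on the log2 scale (SE 0.122, adjusted p = 1.1e-06, limma).

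In the SAUR62 and SAUR26 clusters the response was smaller. SAUR62 (AT1G29430, chromosome 1 from 10302585 to 10303418), the most abundant locus there, was at 13.1, 11.2 and 12.4 TPM in mock-treated and at 3.88, 3.31 and 2.86 TPM in iSB09-treated CsPYL1-5m plants. The log2 fold change was -1.73 (SE 0.117, adjusted p = 2.0e-06, limma). SAUR64, SAUR65 and SAUR63 fell by 1.51, 1.25 and 1.10. SAUR66, in the same cluster, was at 4.15, 2.77 and 3.20 TPM without and at 3.51, 2.68 and 3.80 TPM with iSB09, so that its groups overlapped, and its log2 fold change was -0.01 (95% confidence interval -0.39 to 0.36). SAUR26 (AT3G03850, chromosome 3 from 983057 to 983768) fell from 4.52, 4.63 and 3.53 TPM to 1.14, 0.792 and 1.54 TPM, with a log2 change of -1.53 (SE 0.184, adjusted p = 8.2e-05, limma). SAUR27 and SAUR29 fell by 1.23 and 1.18. SAUR28 in this cluster, and SAUR7 and SAUR12 next to SAUR6, did not pass the filter. They were at 0.856 to 1.62, 0.773 to 1.62 and 0.608 to 1.02 TPM in mock-treated and at 0.480 to 0.827, 0.287 to 0.540 and 0.390 to 0.409 TPM in iSB09-treated CsPYL1-5m plants, each without overlap. AT1G29510, in the SAUR62 cluster, was at 4.32 to 5.04 TPM without and 1.31 to 3.37 TPM with iSB09, with a log2 change of -0.88 (SE 0.249, adjusted p = 0.012, limma).

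No locus of the SAUR19 cluster passed both thresholds in CsPYL1-5m plants by limma, and voom on rebuilt reads called 1. The 3 loci that entered the test all had an adjusted p below 0.05, and an unadjusted p below 0.05, with log2 fold changes of -0.94 for SAUR24, -0.84 for SAUR20 and -0.74 for SAUR21. SAUR24 (from 5983683 to 5984308) was at 6.24, 5.0 and 4.86 TPM in mock-treated and at 3.36, 1.89 and 2.58 TPM in iSB09-treated samples (SE 0.178, adjusted p = 0.0014, limma). Its iSB09 mean was 48.6% of its mock mean. The pseudocount of 0.5 makes fold changes of low loci smaller than such ratios, so that calls depend in part on abundance. SAUR20 was at 7.15, 4.96 and 7.66 TPM without and at 4.25, 2.28 and 4.04 TPM with iSB09 (SE 0.224, adjusted p = 0.0090, limma). The groups of both loci did not overlap. SAUR19, SAUR22 and SAUR23 held 5 to 19 reads in the CsPYL1-5m samples and their groups overlapped. Over the 37 loci, 27 had all iSB09-treated samples below all mock-treated ones, where 36.5% of all genes had, and SAUR36 alone had them above, where 21.3% of all genes had.

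The single loci did not share one response. SAUR51 (AT1G75580, chromosome 1 from 28377377 to 28378310) was at 4.18, 3.59 and 3.83 TPM in mock-treated and at 1.5, 1.15 and 0.345 TPM in iSB09-treated CsPYL1-5m plants, and fell by 1.63 on the log2 scale (SE 0.280, adjusted p = 0.00076, limma). SAUR9 (AT4G36110, chromosome 4 from 17089934 to 17090873) was at 1.18, 2.02 and 1.48 TPM without and at 0.172, 0.30 and 0.274 TPM with iSB09, the latter on 3 to 5 reads, with a log2 change of -1.44 (SE 0.194, adjusted p = 0.00017, limma). SAUR54 and SAUR10 did not pass the filter, and their groups overlapped, with 0.191 to 0.673 and 0.155 to 0.340 TPM for SAUR54 and 0.384 to 1.41 and 0.712 to 0.990 TPM for SAUR10. SAUR36 (AT2G45210, chromosome 2 from 18641563 to 18642739), the senescence-associated member, moved the other way. It was at 16.1, 19.2 and 17.5 TPM in mock-treated and at 24.9, 26.6 and 29.6 TPM in iSB09-treated samples. This difference of 0.60 on the log2 scale (95% confidence interval 0.40 to 0.81, adjusted p = 0.00036, limma) lay below the threshold of 1, although the groups did not overlap.

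**Figure D2:**
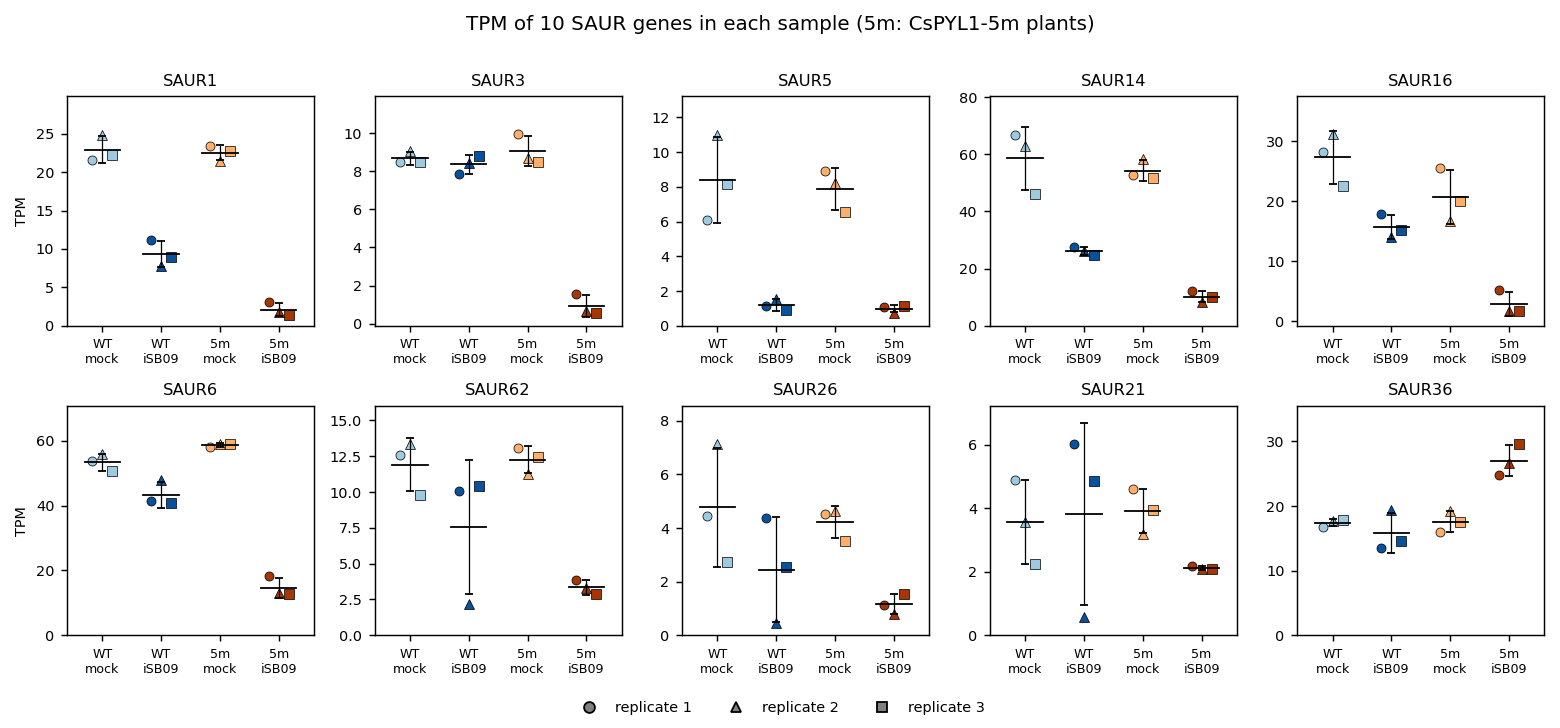
TPM (y axes, linear, one scale per gene) of 10 SAUR genes in each of the 12 samples, by group (x axes), with one symbol per replicate number, the mean as a line and the SD as bars. SAUR1, SAUR14 and SAUR5 were lower with iSB09 in both genotypes, SAUR3 and SAUR6 mainly in CsPYL1-5m plants, SAUR36 was higher in iSB09-treated CsPYL1-5m plants, and replicate 2 of iSB09-treated WT lies far below the other 2 for SAUR62, SAUR26 and SAUR21.

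The same comparison in WT asks what the agonist did through the receptors that the plant already has. In WT, 3 of 37 members were called lower, where 1.54% of all genes tested were. None was called higher, where 2.28% of all genes tested were, a share too small to read a direction from 0 calls. Voom on rebuilt reads called none higher either, and none was higher at an unadjusted p below 0.05. Of the 37, 27 entered the test, and without the filter the count was again 3 of the 35 above 0, where 1.03% of all genes were called lower, with a median log2 fold change of -0.39 against 0.0048 for all 26401 genes. All 3 were on chromosome 4. SAUR5 was at 6.07, 11 and 8.16 TPM in mock-treated WT and at 1.14, 1.54 and 0.899 TPM in iSB09-treated WT. No sample overlapped, and SAUR5 fell by 2.37 on the log2 scale (SE 0.240, adjusted p = 0.0020, limma), the steepest of the listed genes in WT. SAUR1 fell from 21.6, 24.9 and 22.2 TPM to 11.1, 7.82 and 8.90 TPM, with a log2 change of -1.27 (SE 0.141, adjusted p = 0.0029, limma). SAUR14 fell from 66.9, 62.9 and 46.0 TPM to 27.6, 26.1 and 24.9 TPM, with a log2 change of -1.13 (SE 0.143, adjusted p = 0.0046, limma).

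Below the threshold of size in WT, SAUR49 and SAUR16 had log2 fold changes of -0.75 and -0.77 with adjusted p of 0.0096 and 0.015 (limma). SAUR16 was at 28.2, 31.2 and 22.6 TPM in mock-treated and 17.9, 14.0 and 15.3 TPM in iSB09-treated WT, without overlap. SAUR15 had a larger fold change, -1.22, but an adjusted p of 0.069 (limma), since its iSB09-treated samples ran from 1.22 to 3.72 TPM. SAUR3, in contrast, was at 8.49, 9.05 and 8.46 TPM in mock-treated and at 7.84, 8.41 and 8.82 TPM in iSB09-treated WT. These groups overlapped, and the log2 fold change of -0.05 had a 95% confidence interval of -0.29 to 0.19. SAUR6 was at 53.7, 55.8 and 50.6 TPM without and at 41.3, 47.9 and 40.7 TPM with iSB09 in WT, which did not overlap, but the log2 fold change of -0.30 missed the adjusted threshold (adjusted p = 0.067, limma). In WT, all iSB09-treated samples were below all mock-treated ones for 9 of 37 loci, where 14.9% of all genes had this order, and above them for none, where 16.5% of all genes had. As clusters, the SAUR14 loci were at 48.1% and the SAUR1 loci at 60.2% of the mock-treated sum in WT, and the SAUR6 loci at 80.1%.

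For the SAUR62, SAUR26 and SAUR19 clusters, the values in WT depended on replicate 2 of the iSB09-treated samples. SAUR62 was at 10.1 and 10.4 TPM in replicates 1 and 3 of this group and at 2.16 TPM in replicate 2, against 9.80 to 13.3 TPM in mock-treated WT. SAUR26 was at 4.36 and 2.53 TPM in these replicates and at 0.440 TPM in replicate 2, and SAUR21 at 6.02 and 4.86 TPM and at 0.561 TPM. The same library was thus lowest for each of these genes. All 12 members of the 3 clusters that entered the test in WT were at 0.179 to 0.376 of the mean of the other libraries there (from TPM + 0.5). Counting every cluster, 13 of 27 members were at or below 0.5 of that mean in this library, where 1.98% of all genes tested were. The SAUR1 cluster was not among them, with ratios of 0.686 to 1.34, nor were SAUR51, SAUR9 and SAUR36, with 1.32 to 1.36. No other library had more than 1 of 27 members at or below 0.5.

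Some other transcripts were also at an extreme of their group in this library. PIF3, a growth-related bHLH factor of light signaling, was at 72.5 TPM in it and at 35.7 and 35.2 TPM in replicates 1 and 3. PIF4 was at 34.4 TPM against 70.1 and 48.5 TPM, and the light-harvesting gene CAB1 at 10502 TPM against 16376 and 13236 TPM, with replicate 3 in between. The shoot markers LHCB2.1 (585.9 TPM against 874.1 and 572.2 TPM) and RBCS1A (12174 TPM against 13400 and 13051 TPM) did not set this library apart. Their part in the SAUR values was not tested. With all 3 replicates, the summed SAUR62, SAUR26 and SAUR19 clusters were at 79.5, 68.9 and 91.6% of mock-treated WT. Without replicate 2 they were at 108.5, 95.3 and 126.1%, and the count of members called lower in WT stayed at 3, the same genes.

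**Figure D3:**
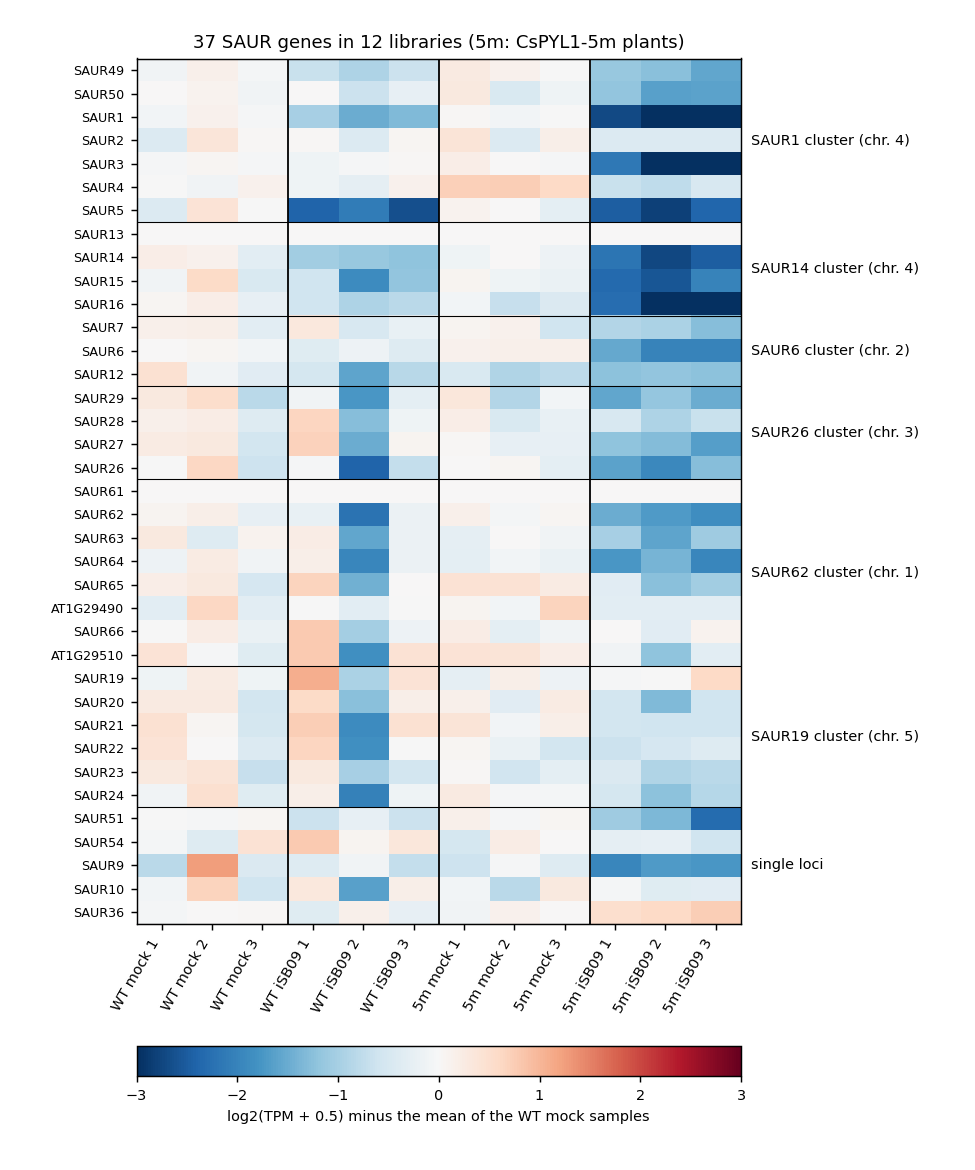
Log2(TPM + 0.5) minus the mean of the mock-treated WT samples (color, limited to -3 and 3) for the 37 SAUR loci (rows, by cluster) in the 12 libraries (columns). The iSB09-treated CsPYL1-5m libraries are low over most rows, and replicate 2 of iSB09-treated WT is low in the SAUR26, SAUR62 and SAUR19 clusters but not in the SAUR1 cluster as a whole.

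Without ligand, the comparison of CsPYL1-5m plants with WT asks whether the transgene alone shifted these genes. None of the 37 was called in either direction (limma, with 27 entering the test), also with voom on rebuilt reads, where 0.0154% of all genes were called lower and 0.0512% higher. An unadjusted p below 0.05 was found for 3 of the 27 members tested, near the share over all genes (1700 of 19530). They were SAUR4, SAUR16 and SAUR12, with log2 differences of 0.68, -0.40 and -0.71 and adjusted p of 0.23, 0.54 and 0.47 (limma). SAUR4 was at 1.91, 1.74 and 2.14 TPM in mock-treated WT and at 3.48, 3.52 and 3.15 TPM in mock-treated CsPYL1-5m plants, so that the groups did not overlap, on 17 to 48 reads. All CsPYL1-5m samples were above all WT samples for SAUR4 and SAUR6, where 6.13% of all genes had this order, and below them for SAUR12, where 6.59% had. The median log2 difference over the 35 members above 0 was -0.08, against -0.01 for all 26564 genes. The summed TPM of the 37 loci was 310 ± 17.1 in mock-treated CsPYL1-5m plants and 317 ± 41.5 in mock-treated WT (SD, n = 3 each).

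Among iSB09-treated samples, 9 of 37 members were called lower in CsPYL1-5m plants than in WT, where 4.49% of all genes were. None was called higher, where 6.3% of all genes were, SAUR36 was higher at an unadjusted p below 0.05, and voom on rebuilt reads called the same numbers, 9 and 0. This comparison shares its samples with those above. Only 18 members entered the test. No locus of the SAUR26 cluster did, since none reached 1 TPM in all samples of either group. The called genes were SAUR50, SAUR1 and SAUR3 in the SAUR1 cluster, SAUR14, SAUR15 and SAUR16, then SAUR6, SAUR51 and SAUR9. SAUR3 differed most, at 0.926 ± 0.556 TPM in CsPYL1-5m plants against 8.36 ± 0.489 TPM in WT (SD, n = 3 each), a log2 difference of -2.70 (SE 0.253, adjusted p = 0.00027, limma). After median-ratio scaling, 7 members were called lower, against 2.83% of all genes (7.86% higher). Without replicate 2 of iSB09-treated WT, 19 members were called lower, against 4.57% of all genes. Of these, 8 had also been called with it, 11 were added and SAUR51 was lost. The added genes were in the SAUR62 cluster (5), the SAUR26 cluster (3), the SAUR19 cluster (2) and the SAUR6 cluster (1). SAUR63, SAUR64, SAUR65, SAUR26, SAUR27, SAUR29 and SAUR7 had not entered the test with replicate 2 and passed the filter only without it. Replicate 2 was the lowest of its group for every added gene, so that leaving it out lowers the difference by construction. The added calls are therefore no separate support. SAUR36 was at 13.5, 19.4 and 14.7 TPM in WT and at 24.9, 26.6 and 29.6 TPM in CsPYL1-5m plants, all higher, with a log2 difference of 0.76 (adjusted p = 0.0041, limma). All CsPYL1-5m samples were below all WT samples for 13 loci, where 34.0% of all genes were.

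Whether the response itself differed between genotypes was tested as an interaction in one fit of the 12 samples. The log2 fold change was more negative in CsPYL1-5m plants for 8 of 37 members, where 3.6% of all genes were called in this direction. None was called in the other direction, where 6.03% of all genes were. SAUR36 alone had an unadjusted p below 0.05 in that direction (difference 0.75, adjusted p = 0.0064, limma), and voom on rebuilt reads gave 8 and 0. SAUR3 stood out, with a response of -2.81 in CsPYL1-5m plants and -0.05 in WT, a difference of -2.75 (SE 0.283, adjusted p = 2.9e-05, limma). SAUR16 differed by -2.04 (SE 0.437), SAUR1 by -1.93 (SE 0.276) and SAUR6 by -1.68 (SE 0.165). SAUR14 differed by -1.25 (SE 0.209), SAUR4 by -1.22 (SE 0.203), SAUR51 by -1.12 (SE 0.361) and SAUR50 by -1.08 (SE 0.286). SAUR4 was at 1.70, 1.51 and 2.15 TPM in iSB09-treated WT, close to its mock-treated samples there, and at 1.04, 0.928 and 1.24 TPM in iSB09-treated CsPYL1-5m plants. SAUR50 was at 21.9, 23.3 and 20.1 TPM in mock-treated and 22.0, 13.7 and 18.4 TPM in iSB09-treated WT, which overlapped, and SAUR51 at 3.64, 3.6 and 3.84 TPM and 2.16, 3.02 and 2.18 TPM, which did not. Among these 8, the largest adjusted p was 0.033, for SAUR51 (limma). After median-ratio scaling, SAUR50 and SAUR51 were no longer called and 6 members remained, against 2.32% of all genes lower and 7.41% higher, and SAUR51 was lost in 13 of 23 alternatives.

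SAUR5 was the counterpart of SAUR3. It fell by 2.37 in WT and by 2.5 in CsPYL1-5m plants, to 1.19 ± 0.323 and 0.986 ± 0.220 TPM (SD, n = 3 each), and the difference of -0.12 had a 95% confidence interval of -0.79 to 0.54. Both responses end near 1 TPM, where the pseudocount of 0.5 limits how far a fold change can go. SAUR3 and SAUR5 have the most similar coding sequences among the aligned pairs of their cluster. They had nearly the same levels in mock-treated WT (8.67 and 8.41 TPM on average) and in iSB09-treated CsPYL1-5m plants. They differed in iSB09-treated WT, with 8.36 against 1.19 TPM.

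For the SAUR62, SAUR26 and SAUR19 clusters, none of the 12 members tested was called in the interaction by limma or by voom on rebuilt reads, and 0 had an unadjusted p below 0.05, with SEs of 0.487 to 0.763. Without replicate 2 of iSB09-treated WT, 16 members were called lower, against 3.92% of all genes. Of these, 7 had been called with it and 9 were added: 5 in the SAUR62 cluster, 2 in the SAUR19 cluster, SAUR27 and SAUR15. Replicate 2 was the lowest of its group for each of these 9, so that leaving it out makes the difference more negative by construction. The difference for SAUR62 was then -1.54 (SE 0.194, adjusted p = 0.00010, limma) in place of -0.87 (SE 0.581), and SAUR51 was no longer called (adjusted p = 0.055, limma).

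**Figure D4:**
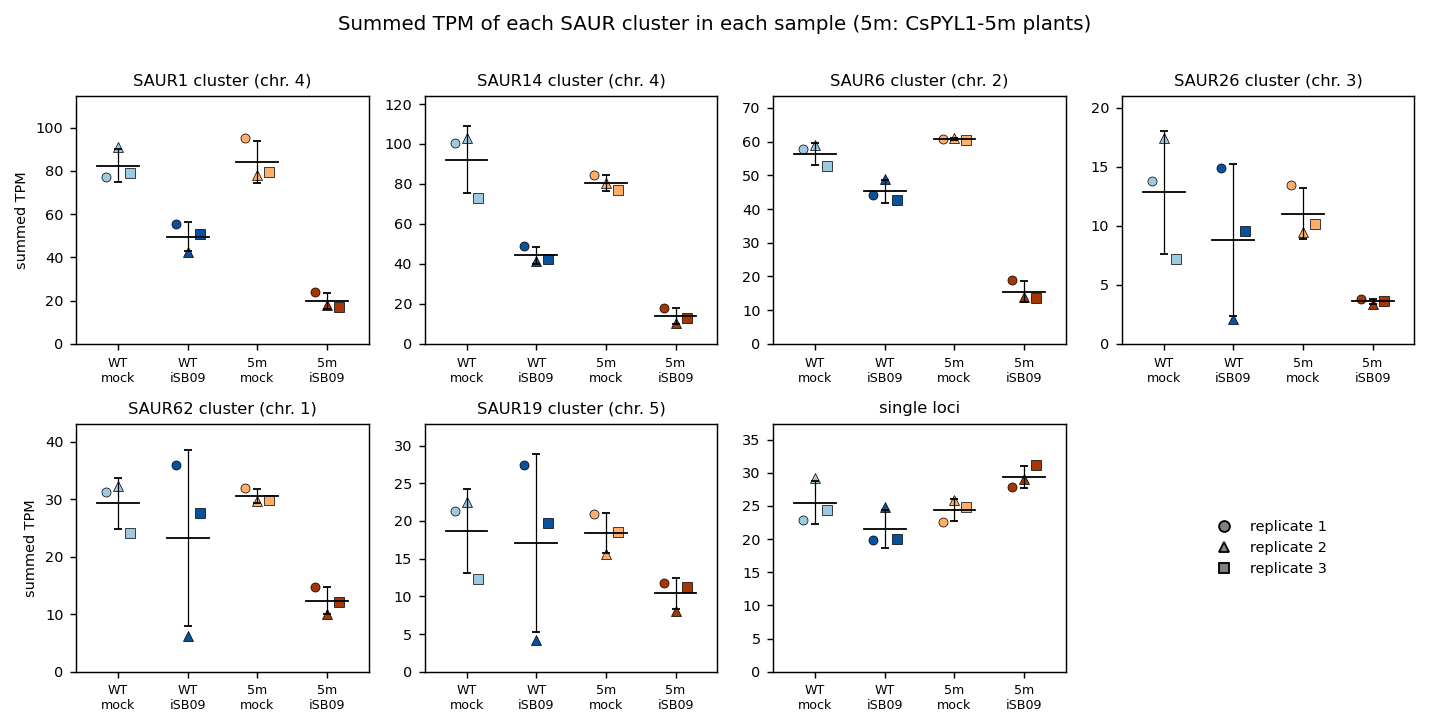
Summed TPM (y axes, linear from 0) of each SAUR cluster and of the single loci in each of the 12 samples, by group (x axes), with one symbol per replicate number, the mean as a line and the SD as bars. The sums of the SAUR14, SAUR1 and SAUR6 clusters in iSB09-treated CsPYL1-5m plants were at 17.1 to 25.5% of mock, and the single loci, of which SAUR36 holds most, were at 120.3%.

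The other genes annotated as SAUR, 43 in number, did not share this direction. In CsPYL1-5m plants, where 9.17% of all genes were called higher, 7 were called higher and 4 lower, and 23 of the 43 entered the test, with a median log2 fold change of 0.02. In the interaction, 5 of them were called higher, where 6.03% of all genes were. The largest rises in CsPYL1-5m plants were those of SAUR74 (2.03), SAUR30 (1.96), SAUR35 (1.81), SAUR72 (1.72) and SAUR79 (1.39). SAUR30 (AT5G53590) was at 16.1, 16.9 and 17.6 TPM in mock-treated and at 65.7, 67.9 and 67.7 TPM in iSB09-treated CsPYL1-5m plants, and at 16.5 to 25.2 TPM in iSB09-treated WT. SAUR72 (AT3G12830), of the SAUR41 group, rose from 7.89, 8.34 and 8.20 TPM to 29.1, 30.4 and 24.8 TPM. The 4 called lower were SAUR76 (-1.57), SAUR78 (-1.54), SAUR57 (-1.45) and SAUR69 (-1.05). SAUR78 (AT1G72430), more abundant than any of the 37 listed loci, fell from 137, 169 and 153 TPM to 50.4, 55.2 and 50.7 TPM.

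Transcripts of the pumps and phosphatases through which SAURs are known to act were counted in the same way. Of all genes tested in CsPYL1-5m plants, 9.17% were called higher, 8.35% lower, and 13780 of 19862 had an unadjusted p below 0.05 (limma). In lists as short as these, 1 call in each direction is near those shares. Of 11 plasma membrane proton pump genes, 9 entered the test in CsPYL1-5m plants, with 1 called higher and 1 lower and 4 at an unadjusted p below 0.05. AHA2 (AT4G30190), the most abundant pump, fell from 614, 577 and 543 TPM to 270.3, 269.2 and 296 TPM, with a log2 change of -1.05 (SE 0.0738, adjusted p = 2.6e-06, limma). AHA11 (AT5G62670) rose from 52.8, 46.0 and 52.2 TPM to 101.0, 104 and 116 TPM, a log2 fold change of 1.08. Of the 9 clade D PP2C genes, AT5G02760 was called lower, with a log2 change of -2.66 (SE 0.149, adjusted p = 6.0e-07, limma), and AT4G33920 higher (1.06), and 7 of the 9 were at an unadjusted p below 0.05. AT5G02760 was at 58.9, 42.6 and 55.7 TPM in mock-treated and at 9.19, 6.43 and 8.02 TPM in iSB09-treated CsPYL1-5m plants, whereas its samples in WT ran from 44.6 to 47.6 TPM in mock and from 37.3 to 46.1 TPM with iSB09. Its response differed between genotypes by -2.54 (SE 0.200, adjusted p = 4.0e-06, limma interaction). In this list, AT3G51370 had the highest mean over the 12 samples, 73.8 TPM.

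Upstream regulators were called singly. None of 6 TIR1 and AFB auxin receptor genes was called by limma in CsPYL1-5m plants or voom (6 at an unadjusted p below 0.05), and none of 5 activating ARF genes (5 at an unadjusted p below 0.05). Of all genes tested there by limma, 13780 of 19862 had an unadjusted p below 0.05, 9.17% were called higher and 8.35% lower. In both lists some members were higher and some lower. TIR1 and ARF6 were the most abundant of these, with 44.4 and 39.1 TPM on average. Of 7 PIF and BZR growth factors, PIF3 (1.88) and PIF4 (1.14) were called higher and PIF1 (AT2G20180, listed as PIL5) lower (-1.05) in CsPYL1-5m plants. PIF3 was at 21.5, 24.0 and 22.7 TPM in mock-treated and at 76.0, 81.0 and 98.6 TPM in iSB09-treated samples. In WT, PIF3 alone was called higher (1.02, adjusted p = 0.043, limma), with replicate 2 the highest of its iSB09-treated samples, and voom on rebuilt reads did not call it. PIF1 differed in its response between genotypes by -1.57 (SE 0.135, adjusted p = 7.6e-06, limma interaction), at 14.8, 16.1 and 15.6 TPM in iSB09-treated WT against 4.62, 4.43 and 4.48 TPM in iSB09-treated CsPYL1-5m plants. BES1, the most abundant of the list at 141.7 TPM on average, was not called. In WT, none of the proton pump, clade D PP2C, auxin receptor or ARF genes was called by limma or voom, with 4 of 11, 2 of 9, 4 of 6 and 1 of 5 at an unadjusted p below 0.05. Of all genes tested in WT by limma, 6152 of 19612 had an unadjusted p below 0.05.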

How the data were processed

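Transcripts of whole seedlings were measured by RNA sequencing in 12 samples, 3 in each of 4 groups taken from the labels. According to the study's methods, the authors trimmed reads with cutadapt, mapped them to TAIR10 with HISAT2, removed nonuniquely mapped pairs with SAMtools and used HTSeq-count with the Araport11 genes. The authors deposited TPM and RPKM tables of 37336 genes. RPKM steps matched whole reads for 71.7 to 73.1% of values (tolerance 0.02), which gave depths of 21502003 to 30696832 reads and rebuilt reads for limma voom.

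Comparisons used limma 3.58.1 (trend) in R 4.3.3 on log2(TPM + 0.5), for genes with at least 1 TPM in all 3 samples of a group compared, and the interaction was fitted on all 12 samples. The counts needed for the study's count test were not used here, so that limma on a log scale replaces it. P-values were two-sided with Benjamini-Hochberg adjustment over all genes tested. A gene was called at adjusted p below 0.05 and absolute log2 fold change above 1. The test was tried on simulated data. With 3 samples a group, p-values measure the spread between these samples. In WT, samples of the same replicate number deviated together (r = 0.164, 0.305 and 0.207), and the study describes independent experiments. Alternatives were pseudocounts, filters, scalings, RPKM, voom, a replicate block and leaving out each library.

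The 37 loci, the gene lists and the alternatives were chosen with earlier results of these data known. Full values are given for the most abundant member and the member with the largest fold change in CsPYL1-5m plants of each cluster, each single locus, and members called in another comparison. SAUR63, SAUR64, SAUR65, SAUR27, SAUR29, SAUR66, SAUR28, SAUR7, SAUR12 and AT1G29510 were chosen after their values were seen. Of other SAUR genes, up to 5 called with the largest rise and fall are named, and of each pathway list those called and the most abundant. Gene models and sequences are those of RefSeq for TAIR10.1, in which 37051 of the 37336 gene identifiers were found.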

Additional observations from a re-analysis of the deposited data

Results flagged for a closer look

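For 8 listed genes the response to iSB09 differed between the genotypes by the interaction test. The difference of the log2 fold changes (CsPYL1-5m plants minus WT) was -2.75 for SAUR3, -2.04 for SAUR16, -1.93 for SAUR1, -1.68 for SAUR6, -1.25 for SAUR14, -1.22 for SAUR4, -1.12 for SAUR51 and -1.08 for SAUR50. All 8 were more negative in CsPYL1-5m plants, whose libraries were also the deeper ones.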

How the results depend on the processing

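The direction of all 39 called values of single members held in their 736 alternative values, of which 691 also stayed past both thresholds. Leaving out replicate 2 of iSB09-treated WT raised the members called lower under iSB09 from 9 to 19 and those called in the interaction from 8 to 16. That library was the lowest of its group for the added members. Over all libraries left out in turn, the counts ran from 3 to 4 in WT, 18 to 21 in CsPYL1-5m plants, 7 to 19 between genotypes under iSB09 and 6 to 16 in the interaction. A pseudocount of 1 or the RPKM table gave 16 in CsPYL1-5m plants and 6 under iSB09. Calls of SAUR51 were kept in 10 of 23 alternatives for the interaction and 9 of 18 under iSB09, and that of SAUR15 under iSB09 in 9 of 17. With the replicate block, 3, 19, 0, 9 and 8 members were called in WT, in CsPYL1-5m plants, in mock, under iSB09 and in the interaction, the counts without it, so that pairing changed no count. Between the other groups same-numbered samples did not all deviate together (r from -0.139 to 0.12). Without near-identical loci, the sum of the SAUR62 cluster was at 49.3% in place of 40.5% of mock in CsPYL1-5m plants. In mock over all genes, 13 calls (10 higher, 3 lower) became 2 with voom.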
